A study of Mus musculus with 24 samples.

Results

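This report describes 9 genes of the epithelial-mesenchymal transition (EMT) in the mouse colorectal cancer cell line MC38, out of 52636 genes in the table, of which 52403 carried a symbol. The genes were chosen by name and with earlier results of these data known. They were the epithelial adhesion genes Cdh1 and Epcam, the mesenchymal genes Cdh2 and Vim, and the transcription factors Snai1, Snai2, Zeb1, Zeb2 and Twist1. Their RNA was followed over all 24 samples, 3 from each of 8 lines. The study altered the glycans of MC38, a tumor line of C57BL/6 mice, to ask how the transcriptome changes with them, and polyadenylated RNA was sequenced from cultures of each line.

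The lines differed as follows. MC38-WT was unmodified and was grown without puromycin, at passages 7, 8 and 9. All other lines were kept in puromycin. MC38-MOCK#1 was the control of the CRISPR-Cas9 lines, and it was harvested at passages 4, 5 and 6, as were the 3 knockout lines. MC38-CMAS KO was targeted in Cmas, which encodes the enzyme that activates sialic acid. MC38-COSMC KO was targeted in C1galt1c1, which encodes COSMC, the chaperone of the T-synthase, and it was obtained by repeated bulk sorting of cells that bound a lectin for the Tn antigen. MC38-DKO was targeted in both genes. MC38-MOCK#2 was the control of the CRISPR-dCas-VPR lines, in which a catalytically dead Cas9 joined to an activator is directed to a gene, and it was harvested at passages 6, 7 and 8. The line labelled FUT4 (passages 7, 8 and 7) and MC38-FUT9 (passages 6, 7 and 8) were meant to activate the fucosyltransferase genes Fut4 and Fut9. Whether the lines other than MC38-COSMC KO are clones or bulk cultures is not given in the sources used here. Line, passage and, for MC38-WT, puromycin cannot be told apart in the comparisons of lines that differ in them. Each line carried its own targeting, so targeting and line cannot be told apart either, nor can the sorting of MC38-COSMC KO.

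The targeted genes were read first. C1galt1c1 was at 145, 163 and 124 normalized counts in MC38-COSMC KO and at 242, 220 and 251 in MC38-MOCK#1, and this difference passed the test (log2 fold change -0.73 ± 0.13 SE, limma adjusted p = 0.0128). The values of MC38-COSMC KO overlapped those of MC38-CMAS KO (215, 181 and 152) and MC38-MOCK#2 (173, 154 and 217), so this RNA did not set it apart from every other line. In MC38-DKO C1galt1c1 was at 206, 166 and 175, against 215, 181 and 152 in MC38-CMAS KO (log2 fold change 0.0055, adjusted p = 1), so the RNA gave no check of the C1galt1c1 label in MC38-DKO. Cmas lay between 93 and 142 in MC38-CMAS KO and MC38-DKO and at 272 or more in all other samples. Fut4 was at 1, 0 and 1 in the line labelled FUT4, where Fut9 was at 209, 171 and 186, and Fut9 was at 955, 641 and 676 in MC38-FUT9 and at 7 or less in the remaining lines. The FUT4 label therefore went against the RNA, and the line is called here by its label only.

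In EMT, cells of an epithelium lose the E-cadherin contacts that hold them to their neighbors and take on a motile form with vimentin filaments and, often, N-cadherin. The SNAIL factors (Snai1, Snai2), the ZEB factors (Zeb1, Zeb2) and Twist1 bind E-box motifs and are known as repressors of epithelial genes, Cdh1 above all. The factors are not interchangeable, since tumor cells often use some of them and not others, and states between epithelial and mesenchymal are common in carcinoma lines.

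The values are normalized counts, meaning that the authors multiplied the reads of a gene by the scaling factor of its library and rounded the product. Each comparison of lines used limma on log2(value + 1), so a log2 fold change understates the change of genes near 0, and a gene was called when its p adjusted over all genes tested (Benjamini-Hochberg) was below 0.05. Per the study's methods, the samples of a line were independent passages taken at different times, so the p-values measure the spread between passages of 1 line. In the line labelled FUT4, samples 1 and 3 were both labelled passage 7, so its samples span only passages 7 and 8. Same-numbered samples of MC38-MOCK#1 and the 3 knockout lines had the same passage number, as had those of MC38-MOCK#2 and MC38-FUT9, and no source used here says that they were harvested together.

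The epithelial adhesion genes were at or near 0 in all 8 lines. Cdh1, which encodes E-cadherin (GRCm38 chr8:106603351-106670246, + strand), reached at most 3 normalized counts and was at 0 in 12 of the 24 samples. Its highest values were 2, 0 and 3 in MC38-FUT9, and all 3 samples of MC38-CMAS KO and of MC38-DKO were at 0. Every line overlapped every other in Cdh1, no comparison called it, and the test of any difference among the 8 lines gave an adjusted p of 0.433 for it. At this level, around the value of a few reads, a difference between lines was not detectable. Epcam, which encodes an adhesion molecule of epithelial cells, was at 0 in 22 of the 24 samples, with 1 normalized count in a sample of MC38-MOCK#1 and 3 in a sample of the line labelled FUT4. It was listed at 0 too often to be tested in any comparison. Of 9 markers of colon epithelium, read because MC38 is labelled a colorectal line, 7 were at 10 or less in all 24 samples. The other two were Lgals4, which did not pass 14, and the keratin Krt20, at 263 to 468 in the line labelled FUT4, 30 to 44 in MC38-CMAS KO and 6 or less elsewhere.

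The starts of members were read for the E-box, and that of Epcam is shown because it held the motif. RefSeq windows of GRCm38.p6 covering the 250 bases before a transcription start were searched for the E-box CACCTG or its reverse complement CAGGTG, the form that the SNAIL and ZEB factors are known to bind. Of 27025 genes with such windows, 19.4% held it on either strand in at least 1 window. Windows of 5 members were read (Epcam, Vim, Snai1, Zeb2 and Twist1), and those of Epcam and Snai1 held the motif, while Vim, Twist1 and the 4 Zeb2 windows did not. No window was available for Cdh1 or Snai2, and those of Cdh2 and Zeb1 were not read. Matches are a description of the letters and not of binding, and their part in the level of any gene was not tested. The window of Epcam (chr17:87635729-87635978, + strand, E-boxes in capitals) held the motif 187 and 19 bases before the start.
Epcam: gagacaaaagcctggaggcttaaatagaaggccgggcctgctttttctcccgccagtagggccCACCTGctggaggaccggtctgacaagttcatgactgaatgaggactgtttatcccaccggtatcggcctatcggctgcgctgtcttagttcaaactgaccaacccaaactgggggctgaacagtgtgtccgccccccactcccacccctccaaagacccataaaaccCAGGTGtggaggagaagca

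Vim, which encodes the intermediate filament protein vimentin of mesenchymal cells (GRCm38 chr2:13573927-13582826, + strand), was the most abundant member in every sample. It ranged from 19787 to 33315 normalized counts over the 24 samples, with a median of 5738 per kb of exon, against 272 per kb for Snai1, the next member by level. Means ran from 22110 ± 2020 (SD, n = 3) in MC38-FUT9 to 28993 ± 2371 in MC38-CMAS KO, and each line overlapped its neighbor in that order. No pairwise comparison called Vim, and its largest log2 fold change was 0.21 ± 0.11 SE, in the line labelled FUT4 against MC38-MOCK#2 (adjusted p = 0.253). The test of any difference among the 8 lines did call it (limma F-test, adjusted p = 0.0223), but not without sample 1 of MC38-FUT9 (adjusted p = 0.0743).

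Cdh2, which encodes N-cadherin (GRCm38 chr18:16588877-16809246, - strand), was expressed in every line, at levels that set 3 lines apart. It was at 449, 474 and 483 normalized counts in MC38-DKO and at 433, 425 and 393 in MC38-MOCK#1. MC38-COSMC KO followed at 296, 292 and 289. The other 5 lines lay lower, with 214, 190 and 179 in the line labelled FUT4, 172, 187 and 167 in MC38-WT, and 153, 173 and 147 in MC38-MOCK#2. MC38-FUT9 was at 160, 133 and 94 and MC38-CMAS KO at 124, 128 and 130. The first 3 lines of this order did not overlap each other or the rest, whereas the lower 5 overlapped their neighbors.

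**Figure D1:**
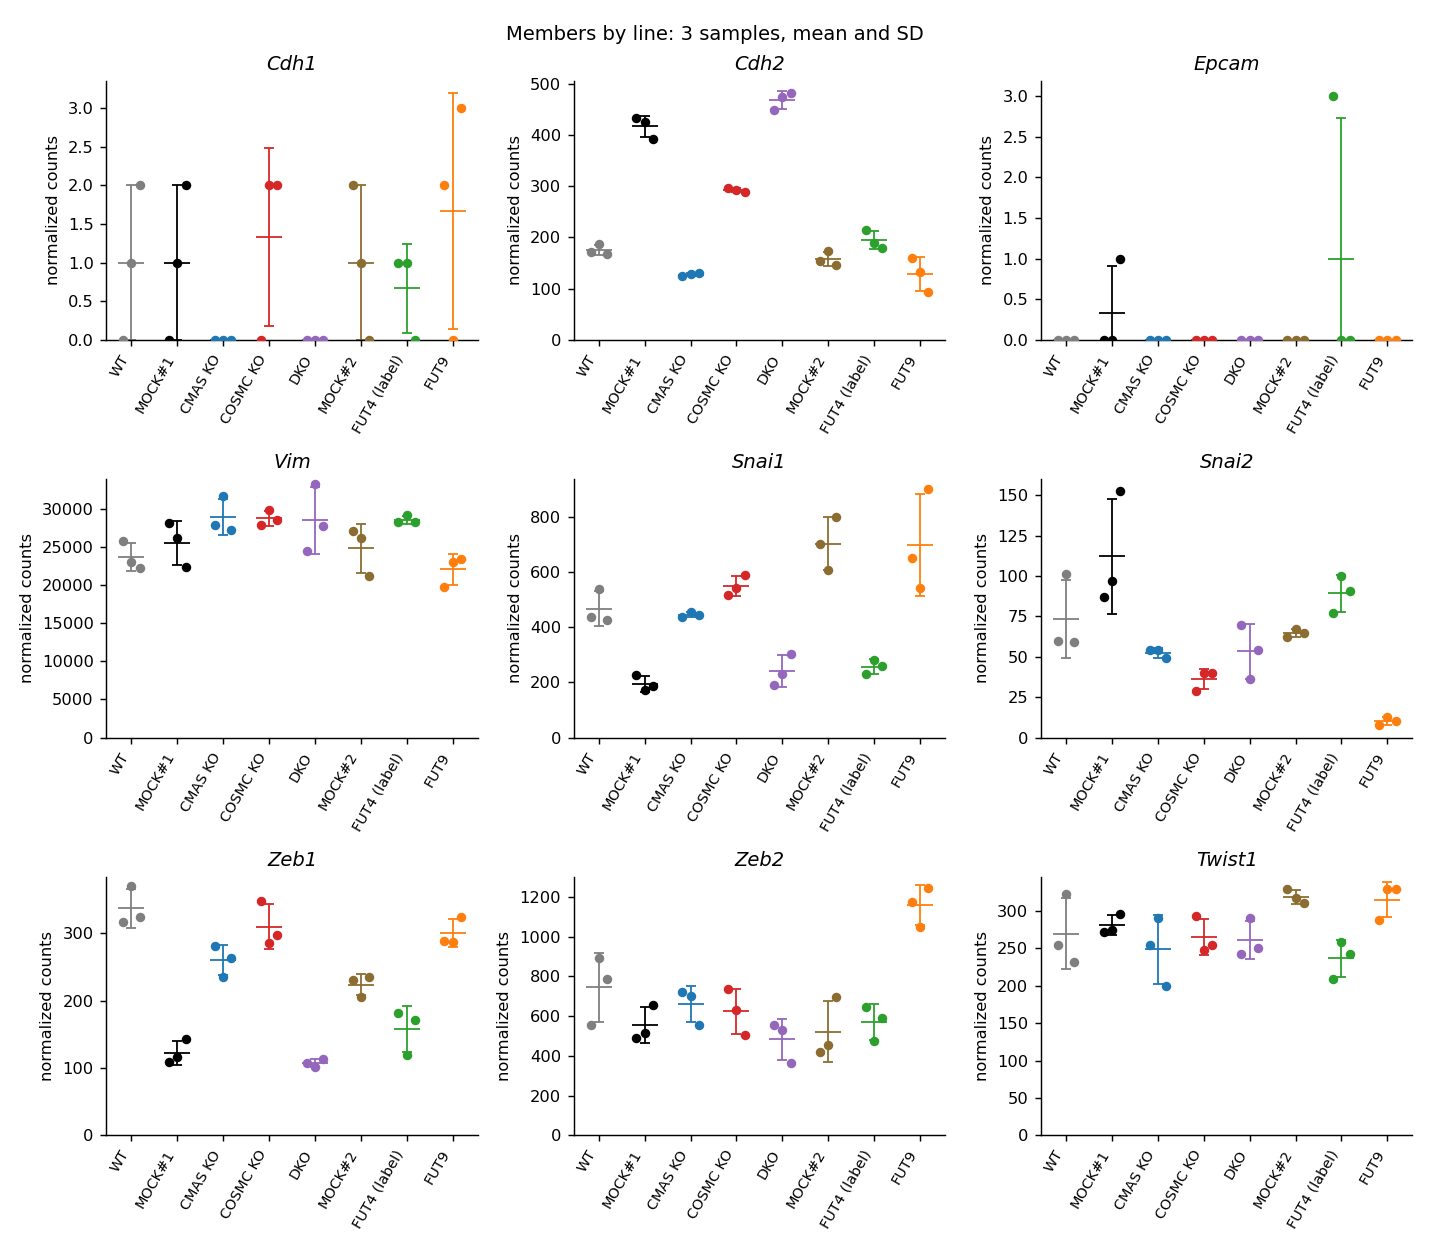
Normalized counts of the 9 members (vertical axes, from 0) in the 8 lines (horizontal axes); points are the 3 samples of a line in order of their number, and bars give the mean and SD. Cdh2 is high and Zeb1 low in MC38-MOCK#1 and MC38-DKO, Snai2 is at 8 to 13 and Zeb2 at 1049 to 1247 in MC38-FUT9, and Cdh1 and Epcam do not pass 3 in any sample.

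All 5 transcription factors were expressed in all 24 samples, at levels set side by side per exon length. Per kb of exon, the median level over the 24 samples was 272 normalized counts for Snai1 and 168 for Twist1, and 30.7, 29.3 and 22.9 for Zeb2, Snai2 and Zeb1. Cdh2 stood at 22.7 per kb on this scale. Snai1 and Twist1 thus exceeded the ZEB factors and Snai2 per exon length in the median, while in the counts themselves the long Zeb2 transcript was the highest of the 5 (median 611.5).

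**Figure D2:**
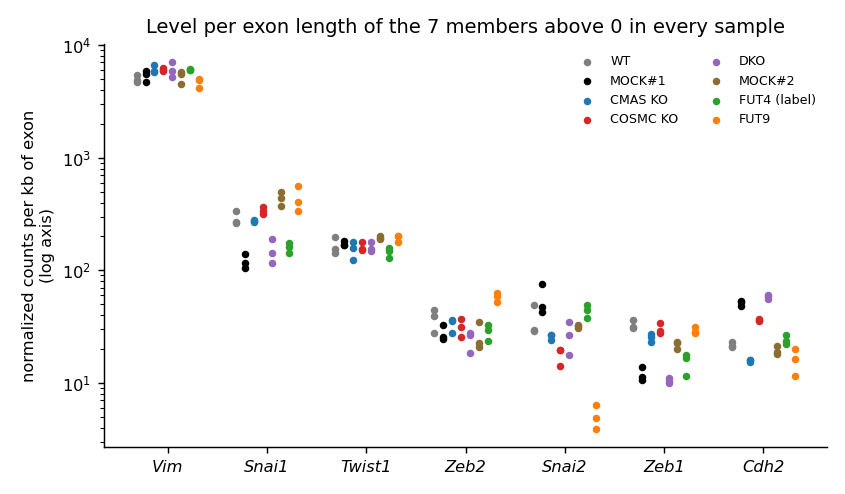
Normalized counts per kb of exon (vertical axis, log scale) of the 7 members above 0 in every sample (horizontal axis), with a point per sample and a color per line. The median of Vim (5738 per kb) lies above Snai1 (272) and Twist1 (168), and Zeb2, Snai2, Zeb1 and Cdh2 have medians between 22.7 and 30.7.

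Snai1, which encodes SNAIL (GRCm38 chr2:167538195-167542814, + strand), separated the lines into a lower and a higher set. It was at 228, 171 and 188 normalized counts in MC38-MOCK#1, at 189, 232 and 305 in MC38-DKO and at 231, 283 and 259 in the line labelled FUT4. In the other 5 lines it was higher, with 437, 456 and 445 in MC38-CMAS KO, 438, 541 and 426 in MC38-WT, and 517, 545 and 591 in MC38-COSMC KO. The highest values were those of MC38-MOCK#2, at 704, 607 and 800, and of MC38-FUT9, at 651, 545 and 903. No sample of the lower 3 lines reached the lowest sample of the higher 5, and within each set neighboring lines overlapped. The window before its start is printed because SNAIL is known to bind E-boxes of its own promoter, and because Snai1 was the member called in most comparisons together with Zeb1. It lay at chr2:167537945-167538194 (+ strand) and held the motif, in capitals, 126 bases before the start.
Snai1: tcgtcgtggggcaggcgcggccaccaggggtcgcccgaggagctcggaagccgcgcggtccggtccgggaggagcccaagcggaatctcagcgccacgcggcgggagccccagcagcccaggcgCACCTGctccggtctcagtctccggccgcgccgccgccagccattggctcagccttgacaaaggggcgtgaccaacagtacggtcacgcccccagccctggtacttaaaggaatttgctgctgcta

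Snai2, which encodes SLUG (GRCm38 chr16:14705852-14709395, + strand), ran in another order. It was lowest in MC38-FUT9, at 8, 13 and 10 normalized counts, and next in MC38-COSMC KO, at 29, 40 and 40. The highest values were 87, 97 and 153 in MC38-MOCK#1 and 77, 100 and 91 in the line labelled FUT4. MC38-WT was at 60, 101 and 59, MC38-MOCK#2 at 62, 67 and 65, MC38-CMAS KO at 54, 54 and 49, and MC38-DKO at 70, 36 and 54. Only MC38-FUT9 lay apart from every other line, since MC38-COSMC KO overlapped a sample of MC38-DKO.

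Zeb1, a zinc finger repressor of Cdh1 (GRCm38 chr18:5591860-5775467, + strand), was lowest in MC38-DKO at 108, 102 and 113 normalized counts and in MC38-MOCK#1 at 109, 117 and 143. The line labelled FUT4 was at 182, 119 and 172 and overlapped MC38-MOCK#1. MC38-MOCK#2 was at 231, 206 and 235, and MC38-CMAS KO at 281, 236 and 264. The highest values were those of MC38-FUT9 (289, 288 and 324), MC38-COSMC KO (348, 286 and 297) and MC38-WT (317, 371 and 324), which overlapped each other. MC38-DKO and MC38-MOCK#1 were thus lowest in Zeb1 and highest in Cdh2, whereas MC38-COSMC KO was high in Zeb1 and stood above 5 other lines in Cdh2. An antisense gene that shares exon sequence with Zeb1, Gm10125, did not pass 3 normalized counts, and the strand setting used for counting is not given in the sources used here.

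**Figure D3:**
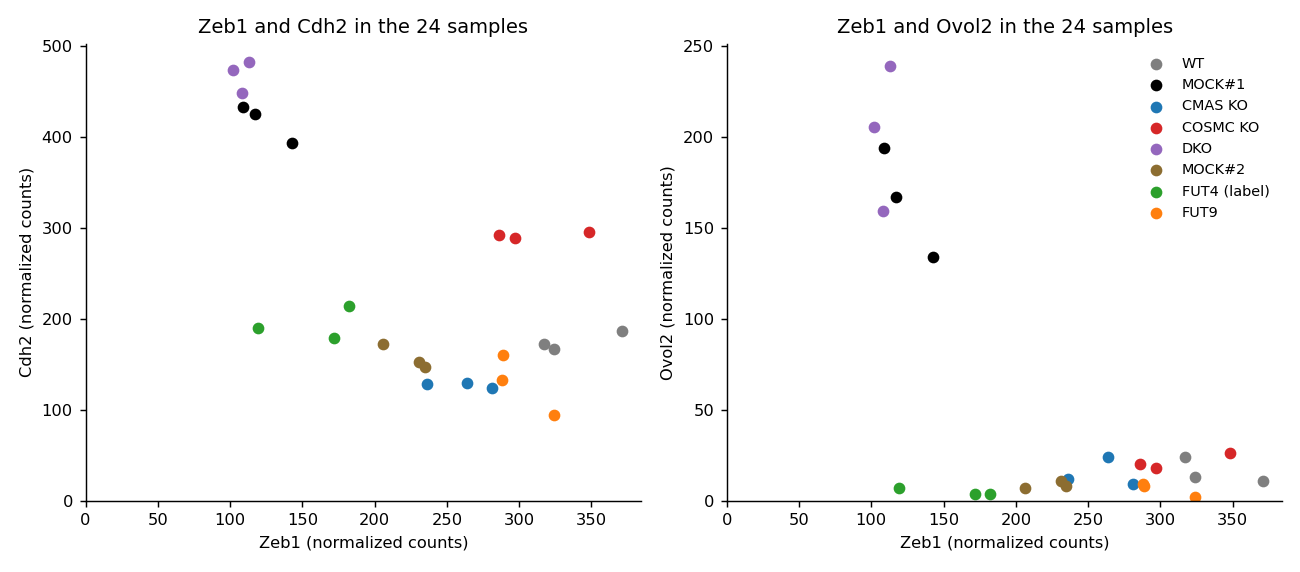
Zeb1 (horizontal axes) against Cdh2 (left) and Ovol2 (right), in normalized counts, with a point for each of the 24 samples and a color for each line. MC38-MOCK#1 and MC38-DKO, at 102 to 143 in Zeb1, hold the highest Cdh2 (393 to 483) and Ovol2 (134 to 239), and the line labelled FUT4 has Zeb1 of 119 to 182 with Ovol2 of 4 to 7.

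Zeb2, the other ZEB repressor (GRCm38 chr2:44983632-45117395, - strand), was highest in MC38-FUT9, at 1177, 1049 and 1247 normalized counts. No sample of the other 7 lines passed 894, and these 7 lines all overlapped their neighbors in the order of means, from 746 ± 173 (SD, n = 3) in MC38-WT to 484 ± 103 in MC38-DKO. The antisense gene Zeb2os, which shares exon sequence with Zeb2, lay between 1 and 21. Twist1, a basic helix-loop-helix factor (GRCm38 chr12:33957671-33959829, + strand), varied least among the factors, from 200 to 329 over all samples. Each line overlapped its neighbor in Twist1, and the test of any difference among the 8 lines gave an adjusted p of 0.0612. It called Twist1 under 2 of 8 other settings (adjusted p = 0.0496 with only genes of a mean of at least 10 tested, 0.0459 with the replicate number as a block) and without sample 2 or 3 of MC38-CMAS KO or of MC38-WT (0.0214 to 0.0482). The test called 6 of the 8 members it could be run on (Cdh2, Vim, Snai1, Snai2, Zeb1 and Zeb2), while it called 48.2% of all genes tested.

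MC38-COSMC KO against MC38-MOCK#1 set the line targeted in C1galt1c1 against its control, and knockout, line and sorting cannot be told apart in it. Snai1 and Zeb1 were higher and Cdh2 and Snai2 lower in the knockout. Snai1 was 2.82-fold higher (log2 fold change 1.50 ± 0.12 SE, limma adjusted p = 0.00094) and Zeb1 2.52-fold higher (1.33 ± 0.13 SE, adjusted p = 0.00194). Cdh2 was 1.42-fold lower (log2 fold change -0.51 ± 0.07 SE, adjusted p = 0.00651) and Snai2 2.98-fold lower (-1.57 ± 0.25 SE, adjusted p = 0.0101). In each of these 4 genes all 3 knockout samples lay beyond all 3 controls. The share of all genes that separate in this way was not counted, so this adds nothing to the calls. Vim, Zeb2, Twist1 and Cdh1 had log2 fold changes between -0.09 and 0.20 and were not called. Of the 8 members tested, 2 were called higher and 2 lower, where 6.17% of all genes tested were called higher and 5.39% lower. The split of all calls was 1367 higher and 1196 lower, and it became 1125 and 1746 when each sample was rescaled to the same total, which changed no call of a member. The call of Snai2 was lost when sample 1, 2 or 3 of MC38-COSMC KO or sample 2 of MC38-MOCK#1 was left out (adjusted p from 0.056 to 0.075). With the replicate number as a block all 4 calls were lost (adjusted p from 0.084 to 0.0905), although same-numbered samples did not all deviate together (r from -0.252 to 0.150).

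MC38-WT and MC38-CMAS KO were compared with the same MC38-MOCK#1 samples, so their differences are not independent of those of MC38-COSMC KO and are given side by side. Snai1 and Zeb1 were higher and Cdh2 lower in both, and Snai2 was called lower in MC38-CMAS KO. In MC38-WT, Snai1 had a log2 fold change of 1.26 ± 0.15 SE (adjusted p = 0.0063), Zeb1 of 1.45 ± 0.14 SE (adjusted p = 0.0035) and Cdh2 of -1.25 ± 0.10 SE (adjusted p = 0.00207). Snai2 stood at -0.61 ± 0.29 SE there and was not called. In MC38-CMAS KO, Snai1 had a log2 fold change of 1.19 ± 0.12 SE (adjusted p = 0.00399), Zeb1 of 1.08 ± 0.13 SE (adjusted p = 0.00823), Cdh2 of -1.70 ± 0.08 SE (adjusted p = 0.000534) and Snai2 of -1.04 ± 0.23 SE (adjusted p = 0.0465). Of all genes tested, 2.7% were called higher and 2.81% lower in MC38-WT, and 3.02% and 2.73% in MC38-CMAS KO. Without sample 2 of MC38-MOCK#1 all 3 calls of MC38-WT were lost (adjusted p from 0.0578 to 0.0871), and Snai1 was also lost without sample 3 of either line. In MC38-CMAS KO the calls of Zeb1 and Snai2 each held in 1 of 6 fits that left out a sample, the fit without sample 3 of MC38-MOCK#1, and Snai1 was lost without sample 2 of MC38-CMAS KO (adjusted p = 0.0551). With the replicate number as a block no member was called in either line (adjusted p from 0.118 to 0.134 in MC38-WT and from 0.107 to 0.187 in MC38-CMAS KO for the calls lost).

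**Figure D4:**
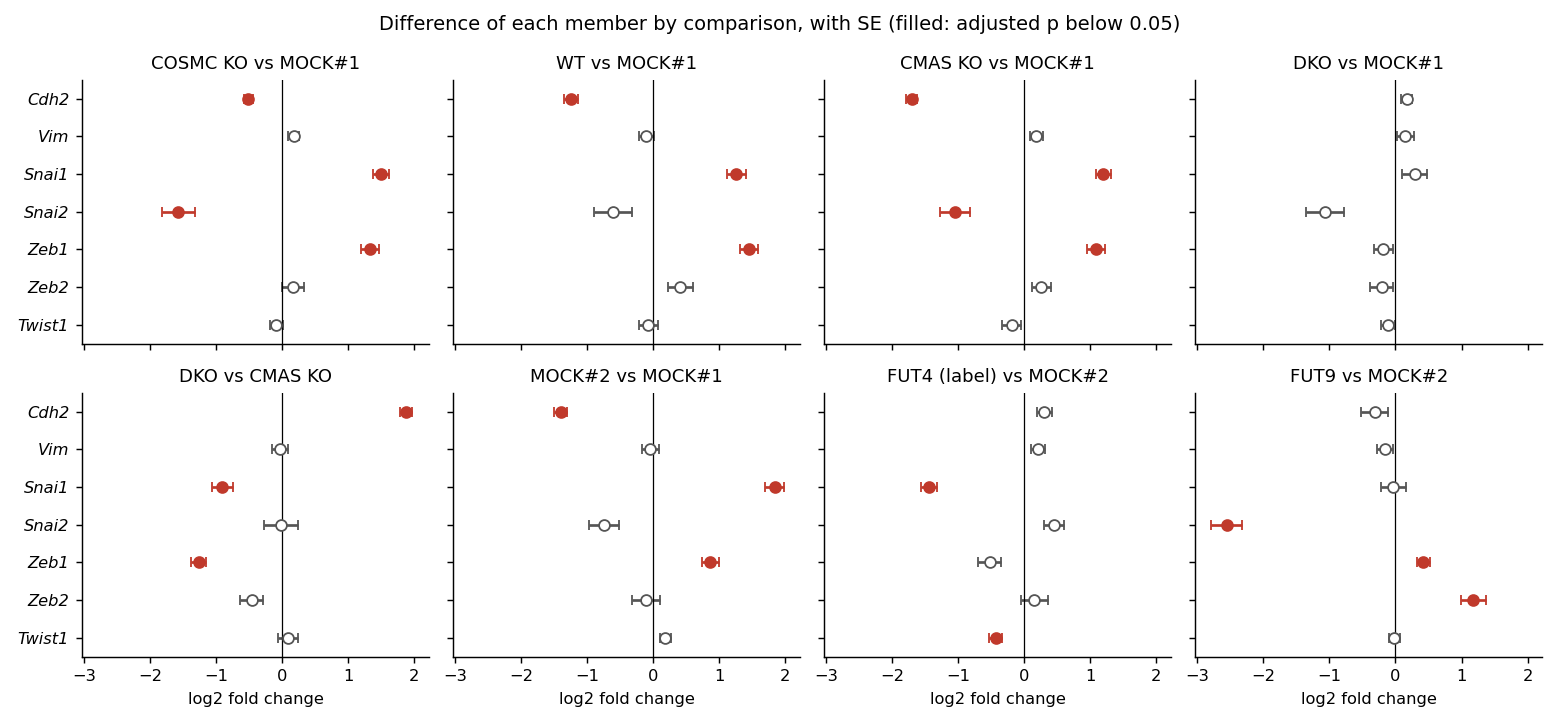
Log2 fold change (horizontal axes, on the log2(value + 1) scale) of 7 members in 8 comparisons, with bars for the SE and filled points for an adjusted p below 0.05. Snai1 and Zeb1 are called higher and Cdh2 lower in 4 panels that share MC38-MOCK#1 as control, no member is called in MC38-DKO against MC38-MOCK#1, and FUT4 (label) marks the line labelled FUT4.

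MC38-DKO against MC38-MOCK#1 called no member. Its largest difference was that of Snai2, at a log2 fold change of -1.07 ± 0.29 SE (adjusted p = 0.395). Cdh2 stood at 0.17 ± 0.08 SE, Snai1 at 0.29 ± 0.19 SE and Zeb1 at -0.18 ± 0.15 SE. Among the 8 members tested, Snai2 alone passed an unadjusted 0.05 in limma. Over all genes tested 0.023% were called higher and 0.069% lower, or 20 genes in all, and 1632 had an unadjusted p below 0.05. Between MC38-DKO and MC38-CMAS KO, which share the Cmas target, 3 of 7 members tested were called. Cdh2 was 3.66-fold higher in MC38-DKO (log2 fold change 1.87 ± 0.09 SE, adjusted p = 5.21e-05). Zeb1 was 2.40-fold lower (-1.26 ± 0.12 SE, adjusted p = 0.00111) and Snai1 1.87-fold lower (-0.91 ± 0.16 SE, adjusted p = 0.0167). Of all genes tested, 3.15% were called higher and 3.78% lower. In this comparison same-numbered samples deviated together (r from 0.118 to 0.229), a hint of pairing that no source used here states. With the number as a block Cdh2 (adjusted p = 0.0269) and Zeb1 (adjusted p = 0.0353) were called but Snai1 was not (adjusted p = 0.066), while the calls over all genes went from 1515 to 795. The call of Snai1 also held in 1 of 6 fits that left out a sample, the fit without sample 3 of MC38-DKO.

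The crossed design allowed a test of whether the COSMC difference was the same without and with the CMAS knockout. It was not for 4 members. The COSMC difference without the CMAS knockout exceeded that with it by 2.60 ± 0.18 SE on the log2 scale for Zeb1 (adjusted p = 3.28e-07) and by 2.40 ± 0.21 SE for Snai1 (adjusted p = 2.78e-06). The same value was -2.38 ± 0.11 SE for Cdh2 (adjusted p = 1.02e-08) and -1.55 ± 0.37 SE for Snai2 (adjusted p = 0.00835). For Zeb1, Snai1 and Cdh2 the COSMC difference had opposite signs in the 2 backgrounds. The signs without the CMAS knockout rest on MC38-MOCK#1 as control. MC38-WT differed from MC38-MOCK#1 in the same directions as MC38-COSMC KO (log2 fold change 1.45 for Zeb1, 1.26 for Snai1 and -1.25 for Cdh2). Cdh2 was at 296, 292 and 289 in MC38-COSMC KO, above the 172, 187 and 167 of MC38-WT. Zeb1 and Snai1 overlapped between these lines, and this pair of lines was not tested. Of all genes tested, 11% had a higher and 11.1% a lower difference by the test of the COSMC differences, and the C1galt1c1 label of MC38-DKO had no check by RNA.

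The control lines themselves differed. In MC38-MOCK#2 against MC38-MOCK#1, Snai1 was 3.59-fold higher (log2 fold change 1.84 ± 0.14 SE, adjusted p = 0.00125), Zeb1 1.82-fold higher (0.87 ± 0.13 SE, adjusted p = 0.0102) and Cdh2 2.64-fold lower (-1.40 ± 0.10 SE, adjusted p = 0.000878). Of the 8 members tested, 2 were called higher and 1 lower, where 5.3% of all genes were called higher and 6.02% lower. The call of Zeb1 was lost without sample 1 of MC38-MOCK#2 (adjusted p = 0.052) or sample 2 of MC38-MOCK#1 (adjusted p = 0.0718). MC38-COSMC KO, MC38-WT, MC38-CMAS KO and MC38-MOCK#2 thus all had higher Snai1 and Zeb1 and lower Cdh2 than MC38-MOCK#1, in 4 comparisons that share the MC38-MOCK#1 samples.

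In the line labelled FUT4, against MC38-MOCK#2, Snai1 was 2.72-fold lower (log2 fold change -1.44 ± 0.13 SE, adjusted p = 0.000827) and Twist1 1.35-fold lower (-0.43 ± 0.10 SE, adjusted p = 0.0298). Zeb1 stood at -0.53 ± 0.17 SE (adjusted p = 0.0881) and Snai2 at 0.45 ± 0.15 SE (adjusted p = 0.0915), and neither was called. No member was called higher and 2 lower, where 8.1% of all genes were called higher and 8.04% lower. The call of Twist1 held in 1 of 6 fits that left out a sample, the fit without sample 2 of the line labelled FUT4. In MC38-FUT9, against the same controls, Zeb2 was 2.27-fold higher (log2 fold change 1.18 ± 0.19 SE, adjusted p = 0.00574), Zeb1 1.34-fold higher (0.42 ± 0.09 SE, adjusted p = 0.0189) and Snai2 5.89-fold lower (-2.56 ± 0.24 SE, adjusted p = 0.000768). Snai1 stood at -0.03 ± 0.19 SE. Among all genes, 12.1% were called higher and 12% lower in MC38-FUT9. The split of all calls, 2596 higher and 2570 lower, became 1979 and 3237 with every sample rescaled to the same total, and the call of Zeb1 was then lost (0.34, adjusted p = 0.0606). Zeb1 was also lost in 4 of 6 fits that left out a sample, those without any of the 3 MC38-FUT9 samples or sample 2 of MC38-MOCK#2 (adjusted p from 0.0515 to 0.0547).

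Related genes were read as lists, which were also chosen with earlier results of these data known. Their counts beside the share of all genes are therefore a description and no independent test. Of 25 mesenchymal genes (matrix, contractile and receptor genes such as Fn1, Sparc, Col1a1 and Pdgfrb), 9 were called higher and none lower in MC38-COSMC KO against MC38-MOCK#1. The median difference of the 23 tested was 0.58 on the log2 scale, against 0 over all genes, of which 6.17% were called higher. The counts were 8 of 24 tested higher in MC38-WT (2.7% of all genes), 10 of 23 in MC38-CMAS KO (3.02%) and 8 of 23 in MC38-MOCK#2 (5.3%), with none lower. Blocking on sample number left 4 genes of the whole table called in MC38-COSMC KO, 0 in MC38-WT and 1 in MC38-CMAS KO, so most of these list calls were lost there. Without the block, no gene of the list was called in MC38-DKO against MC38-MOCK#1. In MC38-DKO against MC38-CMAS KO, 9 were lower and none higher (median -0.71), where 3.78% of all genes were called lower and 3.15% higher. Col1a1, a fibrillar collagen chain, was at 24, 22 and 39 in MC38-MOCK#1, at 26, 20 and 34 in MC38-DKO and at 175, 230 and 255 in MC38-CMAS KO. In the line labelled FUT4 the list was mixed, with 4 higher and 5 lower (8.1% and 8.04% of all genes). So it was in MC38-FUT9, with 4 higher and 4 lower (12.1% and 12% of all genes). Col3a1 was at 5601, 5020 and 13474 in MC38-MOCK#2, at 6160, 4918 and 6318 in the line labelled FUT4 and at 470 or less in every other sample.

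**Figure D5:**
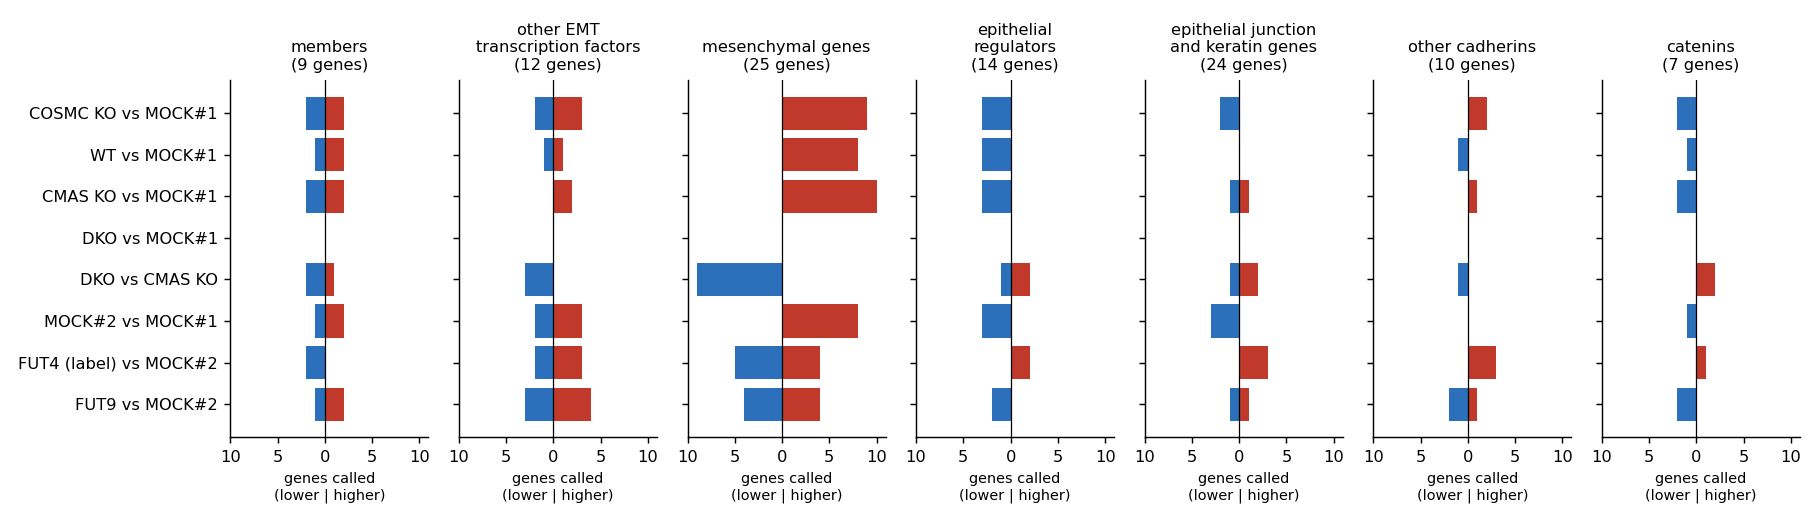
Number of genes called lower (left, blue) and higher (right, red) in each of 7 lists (panels) and 8 comparisons (rows), by limma at an adjusted p below 0.05. Of the 25 mesenchymal genes 8 to 10 are higher and none lower in 4 lines against MC38-MOCK#1 (2.7% to 6.17% of all genes higher). In MC38-DKO against MC38-CMAS KO 9 are lower and none higher (3.78% of all genes lower).

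Of 12 other EMT transcription factors, 10 or 11 could be tested in each comparison. Against MC38-MOCK#1, 3 were higher and 2 lower in MC38-COSMC KO (6.17% and 5.39% of all genes), 1 and 1 in MC38-WT (2.7% and 2.81%), 2 and 0 in MC38-CMAS KO (3.02% and 2.73%), 3 and 2 in MC38-MOCK#2 (5.3% and 6.02%), and none in MC38-DKO. Prrx1, a homeobox factor of mesenchymal cells, was at 163, 150 and 147 normalized counts in MC38-MOCK#1 and at 204, 239 and 231 in MC38-DKO. It was at 961, 879 and 939 in MC38-COSMC KO (6.01-fold against MC38-MOCK#1, adjusted p = 2.06e-05), at 914, 1182 and 1147 in MC38-WT and at 1135, 1216 and 1344 in MC38-FUT9. Like Zeb1, Prrx1 was thus lowest in MC38-MOCK#1 and MC38-DKO. Prrx2, a relative of Prrx1, was instead highest in MC38-MOCK#2 (759, 927 and 761) and at 404 or less in all other samples. Sox4 was lowest in that line, at 22, 9 and 21, and at 110 or more elsewhere. In MC38-DKO against MC38-CMAS KO 3 factors of this list were lower and none higher (3.78% and 3.15% of all genes). In the line labelled FUT4 3 were higher and 2 lower (8.1% and 8.04%), and in MC38-FUT9 4 were higher and 3 lower (12.1% and 12%).

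The 14 epithelial regulators held few genes at more than a low level, and 6 to 9 of them could be tested. Of these, 3 were lower and none higher in each of MC38-COSMC KO, MC38-WT, MC38-CMAS KO and MC38-MOCK#2 against MC38-MOCK#1, where 5.39%, 2.81%, 2.73% and 6.02% of all genes were called lower. The list also held 2 genes called higher and none lower in the line labelled FUT4 (8.1% and 8.04% of all genes). It held none higher and 2 lower in MC38-FUT9 (12.1% and 12%). In MC38-DKO against MC38-CMAS KO 2 were higher and 1 lower (3.15% and 3.78%), and none was called in MC38-DKO against MC38-MOCK#1. Ovol2, a zinc finger factor known to hold epithelial cells in their state and to repress Zeb1, was at 194, 167 and 134 normalized counts in MC38-MOCK#1 and at 159, 205 and 239 in MC38-DKO. In all other samples it lay between 2 and 26. Set against MC38-MOCK#1, the log2 fold change of Ovol2 stood at -2.89 in MC38-COSMC KO (adjusted p = 0.000747), -3.35 in MC38-WT (adjusted p = 0.00345) and -3.47 in MC38-CMAS KO (adjusted p = 0.00427). The lines with high Ovol2 were those with the lowest Zeb1, but the line labelled FUT4 had low Ovol2 (4, 7 and 4) and Zeb1 that overlapped MC38-MOCK#1. Esrp1, an epithelial splicing factor, was at 352, 241 and 364 in the line labelled FUT4 and at 309, 257 and 226 in MC38-CMAS KO, and it was at 20, 23 and 16 in MC38-MOCK#2 and at 3, 5 and 2 in MC38-FUT9.

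Of 24 epithelial junction and keratin genes, 16 to 18 could be tested in a comparison of 2 lines, and at most 3 were called there. In these comparisons 0.023% to 12.1% of all genes were called in a given direction. The test of the COSMC differences called 1 higher and 5 lower of 17 tested (11% and 11.1% of all genes). That of any difference among the 8 lines called 12 of 17, where it called 48.2% of all genes. Krt20, an intestinal keratin, was at 448, 263 and 468 normalized counts in the line labelled FUT4 and at 44, 41 and 30 in MC38-CMAS KO. These Krt20 values made up most of the summed colon markers of the line labelled FUT4, which were 267 to 480 against 7 to 64 in the other lines. Among 10 other cadherins, Cdh6 (K-cadherin) was at 423, 372 and 402 in the line labelled FUT4, at 32, 27 and 35 in MC38-MOCK#2 and at 1, 1 and 0 in MC38-FUT9. Of 7 catenins, the cytoplasmic partners of cadherins, Jup (plakoglobin) was at 269, 242 and 248 in MC38-MOCK#1 and at 195, 247 and 228 in MC38-DKO. It was at 130, 113 and 97 in MC38-COSMC KO (log2 fold change -1.16, adjusted p = 0.00249) and at 14, 13 and 15 in MC38-FUT9. Ctnnb1, which encodes beta-catenin, lay between 4514 and 6946 in all 24 samples.

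Markers of other cell types were read for the same samples. Summed over 6 leukocyte markers the level was 0 to 9 normalized counts, with Ptprc and the rest at 10 or less in every sample, and over 5 endothelial markers it was 1 to 36. The 6 fibroblast markers, of which collagen genes are also in the mesenchymal list, summed to 5655 to 14441 in MC38-MOCK#2 and 5406 to 7023 in the line labelled FUT4, against 586 to 2018 in the other lines. Col3a1 accounted for most of that. Dcn, which encodes the matrix proteoglycan decorin and was named after its values were seen, was at 129, 417 and 304 in MC38-WT against 0, 1 and 2 in MC38-MOCK#1 (log2 fold change 7.13 ± 0.56 SE, adjusted p = 0.00207), and at 118, 46 and 125 in the line labelled FUT4, with 31 or less in the other lines. Dcn was at 3, 2 and 6 in MC38-CMAS KO and at 6, 4 and 0 in MC38-COSMC KO. The fibroblast markers did not run alike. In MC38-CMAS KO against MC38-MOCK#1, Col1a1 was at 175, 230 and 255 against 24, 22 and 39. Col3a1 was at 291, 207 and 316 against 34, 24 and 65, whereas Pdgfra overlapped and Fap was at 1, 0 and 3 against 4, 5 and 8. The part of other cells in these values was not tested, and in bulk RNA fewer cells that express a gene and less RNA per cell cannot be told apart. The totals of the normalized counts were 10911849 to 12263307 per sample. Samples 1 and 3 of the line labelled FUT4, both of passage 7, differed least of all replicate pairs, with an SD of the log2 difference of 0.255 against up to 0.455 for others.

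The genes whose pattern was most like that of a member were searched among 13514 genes with a mean of at least 10, by Pearson r of log2(value + 1) over the 24 samples, which fall into 8 lines and are not independent. For Cdh2 they included Fmr1nb (r = 0.897) and Epb41l4a (0.893). For Zeb1 they were Tmsb4x (0.955), Col6a1 (0.948) and Ngef (0.941). Snai1 was closest to Syt11 (0.959), Glmp (0.954) and Gxylt2 (0.938), and Snai2 to Ptn (0.936), Plekha2 (0.930) and Tshz2 (0.929). For Zeb2 they included Etv5 (0.917) and Kif13a (0.898). Twist1 and Vim, which varied least between lines, had lower values, with Uvrag (0.812) first for Twist1 and Tmem109 (0.833) first for Vim. No member was among the 3 closest genes of another member.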

How the data were processed

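RNA of 24 samples of MC38 cells, 3 from each of 8 lines, was analyzed, and samples were grouped by their titles. Per the study's methods and processing notes, reads were trimmed, aligned to GRCm38 with HISAT2 2.0.4, processed with SAMtools 0.1.19, counted per gene with featureCounts (Subread 1.5.0-p3) without reads that overlap several genes, and normalized with edgeR 3.18.1. What the authors deposited is a score, that is, read counts multiplied by 1 factor per library and then rounded. These are no raw counts, so no count test was run. Reads per library were not estimated here, so depth behind a value is unknown beyond the totals of the normalized counts.

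Lines were compared in pairs (3 samples each, no covariate) with limma 3.58.1 under R 4.3.3, after adding a pseudocount of 1 and taking log2; eBayes was run with a trend over the mean. Genes with more than 4 zeros of 6 samples were left out (8 of 12 and 16 of 24 in the larger fits), and p-values were adjusted over all genes tested. The scripts were tested on simulated data. Symbols came from the gene annotation, exon lengths from those the authors deposited with the values, and start windows from RefSeq. Tables were handled in Python 3.11.15 (pandas 2.3.3, numpy 2.4.6) and figures drawn with matplotlib 3.10.9. Named beyond the members were the targeted genes, up to 2 genes per list, comparison and direction with the largest change and no overlap of samples, and the 3 genes most like a member, with some of these not reported here. Ctnnb1 was named after its values were seen. The members and lists were chosen with earlier results of these data known.

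Sample numbers were checked for pairing by the correlation of same-numbered samples' deviations from their line means. Every pair was over 0.1 in MC38-DKO against MC38-CMAS KO (0.118 to 0.229) and in MC38-FUT9 against MC38-MOCK#2 (0.134 to 0.345), which was taken as a hint of pairing and does not establish it. Alternatives were other pseudocounts, filters, scalings, eBayes without a trend, a replicate block, all 8 lines in 1 fit, and leaving out each sample.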

Additional observations from a re-analysis of the deposited data

Results flagged for a closer look

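For 4 members the COSMC difference was unlike without and with the CMAS knockout, by the test of the difference itself (limma, 12 samples). The difference of MC38-COSMC KO from MC38-MOCK#1 minus that of MC38-DKO from MC38-CMAS KO was 2.60 on the log2 scale for Zeb1, 2.40 for Snai1, -2.38 for Cdh2 and -1.55 for Snai2. Behind the first 3 lie differences of opposite sign: 1.33 and -1.26 for Zeb1, 1.50 and -0.91 for Snai1, and -0.51 and 1.87 for Cdh2. For Snai2 the difference was -1.57 without the CMAS knockout and -0.02 with it. C1galt1c1 RNA in MC38-DKO was no lower than in MC38-CMAS KO, so the label of that line had no check by RNA, and its part in these values was not tested. All 4 calls held in each of the 12 fits that left out a sample and in all other alternatives run. Each of these kept MC38-MOCK#1 as the control without the CMAS knockout. MC38-WT differed from that control in the same directions as MC38-COSMC KO for Zeb1 (1.45), Snai1 (1.26) and Cdh2 (-1.25).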

How the results depend on the processing

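Other pseudocounts (0.5 and 4), filters on low values and scalings left the calls of members in the pairwise comparisons as reported, except that of Zeb1 in MC38-FUT9 against MC38-MOCK#2 under rescaling to the same total. With eBayes without a trend, Snai1 in MC38-DKO against MC38-CMAS KO (adjusted p = 0.0879), Snai2 in MC38-CMAS KO against MC38-MOCK#1 (0.0954), Twist1 in the line labelled FUT4 (0.0797), which left 1 member called there, and Zeb1 in MC38-FUT9 (0.0528) were lost, as was Vim among the 8 lines (0.0548). All genes called then numbered 1135 in MC38-COSMC KO, 717 in MC38-WT, 726 in MC38-CMAS KO, 40 in MC38-DKO and 1389 in MC38-MOCK#2 against MC38-MOCK#1, 692 in MC38-DKO against MC38-CMAS KO, and 2270 in the line labelled FUT4 and 3430 in MC38-FUT9 against MC38-MOCK#2. With all 8 lines in 1 fit, Zeb1 was also called in the line labelled FUT4 (adjusted p = 0.00714), and all genes called numbered 2981 in MC38-WT, 2207 in MC38-CMAS KO, 159 in MC38-DKO and 3976 in MC38-MOCK#2 against MC38-MOCK#1, and 2403 in MC38-DKO against MC38-CMAS KO.

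With a replicate block, 0 members were called in MC38-COSMC KO, MC38-WT and MC38-CMAS KO against MC38-MOCK#1 (lowest adjusted p of a member called without the block 0.084), and 1 in the line labelled FUT4. All genes called by limma under the block numbered 4 in MC38-COSMC KO (4669 with an unadjusted p below 0.05), 0 in MC38-WT (3788), 1 in MC38-CMAS KO (3960) and 0 in MC38-DKO against MC38-MOCK#1 (1408), 795 in MC38-DKO against MC38-CMAS KO, and 1756 in the line labelled FUT4. Same-numbered samples share a passage number among MC38-MOCK#1 and the knockout lines, but not in MC38-WT or the line labelled FUT4 and their controls. In these comparisons other than MC38-DKO against MC38-CMAS KO they had a correlation of deviations of -0.252 to 0.311, with 0 to 3 of the 6 samples closest to the one of their own number, a hint from the data and not from the design. Under the block Snai1 was lost in MC38-DKO against MC38-CMAS KO and Twist1 was gained among the 8 lines (adjusted p = 0.0459), and no other call of a member changed. The correlations for MC38-DKO against MC38-CMAS KO and for MC38-FUT9 against MC38-MOCK#2 are given in the account of the processing. For MC38-MOCK#2 against MC38-MOCK#1 they were 0.0952 to 0.376, with 5 of the 6 samples closest to the one of their own number. Same-numbered samples of these 2 lines do not share a passage number.

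Leaving out 1 sample, the members called ranged from 3 to 4 in MC38-COSMC KO, 0 to 3 in MC38-WT (0 without sample 2 of MC38-MOCK#1), 1 to 4 in MC38-CMAS KO, 0 to 0 in MC38-DKO and 2 to 3 in MC38-MOCK#2 against MC38-MOCK#1. They ranged from 2 to 3 in MC38-DKO against MC38-CMAS KO, 1 to 2 in the line labelled FUT4 and 2 to 3 in MC38-FUT9, 4 to 5 for the difference of COSMC differences (5 with Zeb2, without sample 3 of MC38-COSMC KO or of MC38-MOCK#1) and 5 to 7 among the 8 lines. All genes called ranged from 675 to 2137 in MC38-COSMC KO, 31 to 693 in MC38-WT, 122 to 876 in MC38-CMAS KO, 0 to 4 in MC38-DKO and 632 to 1737 in MC38-MOCK#2 against MC38-MOCK#1, 231 to 761 in MC38-DKO against MC38-CMAS KO, 1621 to 3112 in the line labelled FUT4 and 3089 to 5065 in MC38-FUT9.

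No called member changed sign. Of members that were not called, 12 values changed sign when a sample was left out, with these ranges of log2 fold change. For Cdh1 they were -0.24 to 0.72 in MC38-COSMC KO, -0.63 to 0.17 in the line labelled FUT4, -0.10 to 0.93 in MC38-FUT9 and -0.24 to 0.72 for the difference of COSMC differences. In MC38-DKO against MC38-CMAS KO they were -0.15 to 0.072 for Vim, -0.24 to 0.23 for Snai2 and -0.066 to 0.20 for Twist1. In MC38-MOCK#2 they were -0.14 to 0.065 for Vim and -0.34 to 0.032 for Zeb2, in MC38-WT -0.21 to 0.029 for Twist1, and in MC38-FUT9 -0.23 to 0.13 for Snai1 and -0.051 to 0.045 for Twist1. With 3 samples a line and rounded values, differences in Cdh1 and Epcam could not be seen.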
